A study of Mus musculus with 4 samples.

Results

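The genes described here are Ltbp1, Ltbp2, Ltbp3, Ltbp4, Lrrc32, Nrros, Itgav and Itgb8, which encode proteins that store or activate latent TGF-β. They were picked by gene symbol, whatever their level, and each symbol matched 1 of the 31054 features in the count matrices, so that all 8 members were found. The question was which cell classes of old gonadal fat carried transcripts of each member, in each of the 4 libraries.

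TGF-β is secreted as an inactive complex, in which a propeptide called the latency-associated peptide (LAP) wraps around the cytokine. Latent TGF-β binding proteins (LTBPs) tie this complex to fibrillin and fibronectin in the extracellular matrix, whereas GARP, the product of Lrrc32, and LRRC33, the product of Nrros, hold it on the cell surface. The integrin αvβ8, which is built from the products of Itgav and Itgb8, binds LAP and frees the cytokine. GARP is best known from regulatory T cells, platelets and endothelium, and LRRC33 from macrophages and microglia. Transcripts were counted here, so storage or activation of the protein was not measured.

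Cells came from the stromal vascular fraction of gonadal adipose tissue of 18-month-old male mice. All mice were p16-CreERT2/R26-LSL-tdTomato and received tamoxifen, so that tdTomato (Tom) marks cells, and descendants of cells, in which the p16 promoter drove the Cre recombinase while tamoxifen was present. The fraction was freed with Liberase and sorted on CD45, the pan-leukocyte protein that Ptprc encodes, and on Tom. This gave 4 droplet libraries, 1 for each combination of CD45 and Tom in the group labels. The sorting text of the labels names the CD45- Tom- gate a second time where the CD45+ Tom- gate would stand, so the latter library is named from its group label alone. The number of mice behind a library is not given in the sources used here, mature adipocytes were removed with the supernatant, and Tom- cells are cells without detectable recombination and not a p16 knockout.

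Before the results, 3 features of the libraries bear on every value. Tom behaved as labelled: tdTomato stood at 713 and 715 CPM (unique molecular identifiers, UMIs, which count molecules, scaled to a common total) in the Tom+ libraries and at 16.0 and 18.8 CPM in the Tom- libraries. In contrast, the CD45 labels went against Ptprc, which was detected in 80.3% of cells labelled CD45- Tom+, 49.5% of CD45- Tom-, 78.8% of CD45+ Tom+ and 52.2% of CD45+ Tom-. Leukocyte-like cells made up 68.1%, 36.7%, 66.2% and 41.5% of the same libraries, so the CD45 words are used below only as names. Finally, libraries shared cell barcodes, above all the 2 Tom- libraries with 4394 in common. Of the kept cells, 603, 1419, 222 and 1301 had a barcode also present in another library, and levels and ratios moved by over 1.5-fold when these cells were left out are given both ways. Leaving them out was done with the other cells keeping their classes and, for the ratios of Tom+ to Tom-, also with the remaining cells clustered anew. Depth was high and even, with a median of 18331 to 19502 UMIs per kept cell.

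The 13878 kept cells formed 32 clusters. A cluster was called "-like" a cell type where that type's markers were raised and no unrelated type rivalled them. A rival was passed over where the leading genes held markers of the first type and none of the rival. Mesothelial-like cells were named in this way. They also carried the 6 progenitor markers, summing to 15996, 16478 and 16963 CPM in CD45- Tom+, CD45- Tom- and CD45+ Tom-. In cluster 7 these markers summed to 9467 to 10915 CPM. Cluster 7, led by the chemokine genes Cxcl5 and Cxcl13, kept its number because it carried both progenitor and mesothelial markers and neither set led it. Cluster 12, led by Rbp7 and Aqp7, kept its number because it carried both blood endothelial and mural markers. Cluster 15 had 7 of 7 macrophage markers raised and cluster 24 had 6 of 6 progenitor markers, but immunoglobulin transcripts withheld their names. In the Tom+ libraries they held 158 and 68 cells (CD45-) and 88 and 24 cells (CD45+). In the Tom- libraries they held 2 and 3 cells (CD45-) and 7 and 2 cells (CD45+). These mostly Tom+ cells are in neither the macrophage-like nor the progenitor-like class below. For each class and library the UMIs of a gene were summed over cells and expressed as CPM with an exact Poisson interval at 95%. Where values are listed for 4 libraries, those labelled CD45- come first and, within each CD45 label, Tom+ comes before Tom-, and classes of under 50 cells in a library are left out unless their cell number is given. Each of the 4 groups was 1 library, so no test between groups was run, the intervals cover counting error only, and CPM was compared between cells for the same gene, never between genes.

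Across the classes, 7 of the 8 members reached their highest level outside the leukocyte-like classes in every library, and Nrros alone reached it inside them. The progenitor-like, mesothelial-like and lymphatic endothelial-like classes and clusters 7 and 12 led for different members, as the plot of levels by class shows.

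**Figure D1:**
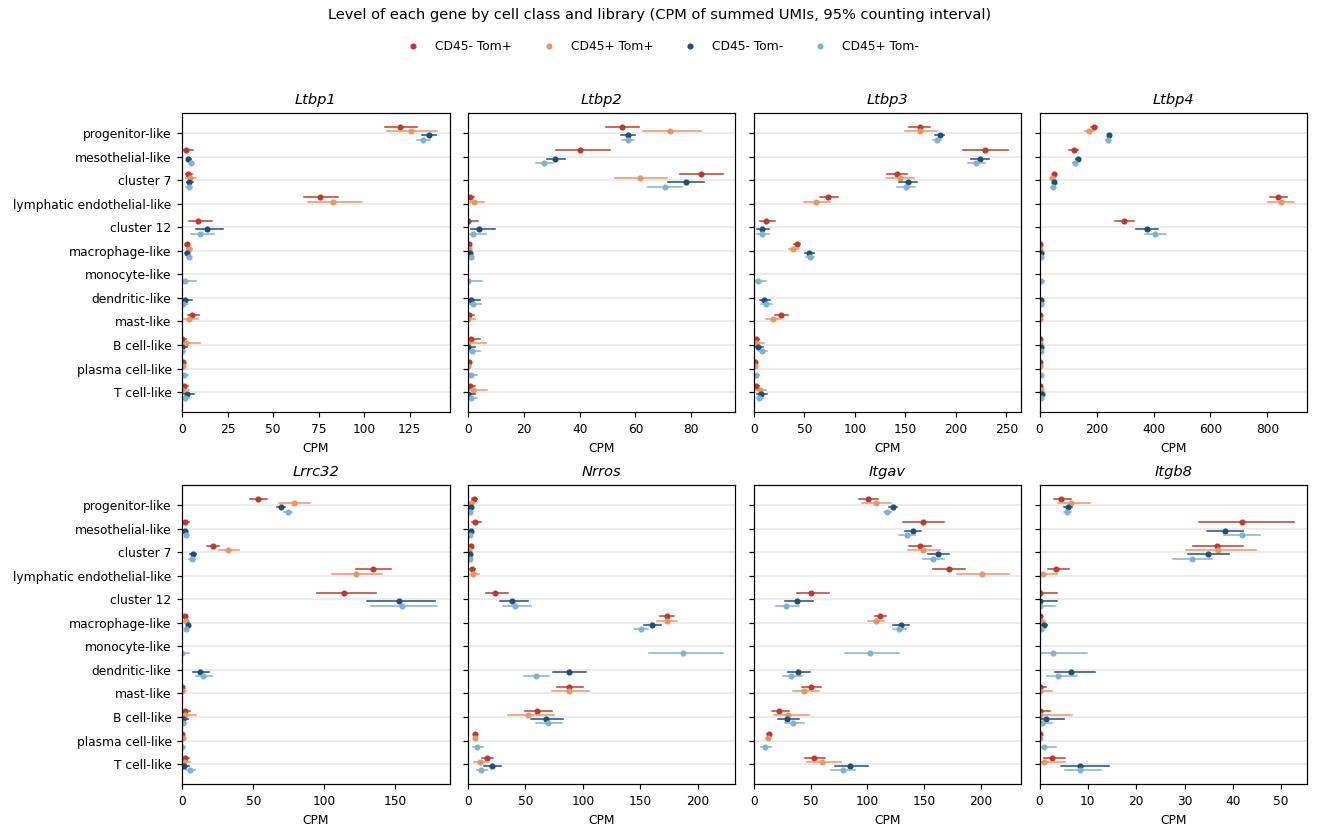
Level of each member in CPM (x axis, its own scale in each panel) in each cell class (y axis), with 1 point for each library, coloured by library, and lines for exact Poisson intervals at 95%. Classes with under 50 cells in a library have no point. Ltbp1 is highest in progenitor-like cells, Ltbp4 in lymphatic endothelial-like cells, Itgb8 in mesothelial-like cells and cluster 7, and Nrros in macrophage-like and monocyte-like cells.

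Ltbp1, whose protein links LAP to fibrillin and fibronectin, was a progenitor gene in these libraries. The gene (ENSMUSG00000001870) lies on the plus strand of chromosome 17 from 75005568 to 75392512 in GRCm38. Progenitor-like cells held 120 CPM (111 to 129), 136 CPM (132 to 139), 126 CPM (112 to 140) and 133 CPM (129 to 136), the highest level of any class in all 4 libraries, and their intervals did not overlap those of the next class. A UMI was found in 75.5%, 81.7%, 80.2% and 82.2% of these cells at a median depth of 21341 to 23475 UMIs. In B cell-like cells, at a lower median depth of 5296 to 6510 UMIs, the share was 0% in 3 libraries and 1.39% in CD45+ Tom+. With every cell thinned to 2000 UMIs the progenitor share was still 21.9% to 29.2%, against 0% in B cell-like cells. Lymphatic endothelial-like cells, which were almost confined to the Tom+ libraries (178 and 85 cells, against 1 and 0), came next at 75.6 CPM (66.7 to 85.4) and 83.0 CPM (69.2 to 98.7).

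Ltbp2, the family member that sits on microfibrils but does not bind LAP covalently, was led by cluster 7 in 3 of the 4 libraries. The gene (ENSMUSG00000002020) lies on the minus strand of chromosome 12 from 84783212 to 84876532. Cluster 7 held 83.3 CPM (76.0 to 91.2), 78.0 CPM (71.9 to 84.6), 61.6 CPM (52.8 to 71.4) and 70.4 CPM (64.6 to 76.6). Progenitor-like cells held 55.1, 57.3, 72.5 and 57.3 CPM, with intervals apart from cluster 7 in all libraries except CD45+ Tom+, where they overlapped. Mesothelial-like cells followed at 40.3, 31.3 and 27.2 CPM in the 3 libraries with enough of them. Without the shared barcodes the progenitor level was 37.4, 25.0, 50.9 and 26.7 CPM, while cluster 7 kept 104, 111, 80.2 and 61.2 CPM.

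Ltbp3, which carries LAP in the matrix as Ltbp1 does, was the most widely spread of the LTBP genes. It lies on the plus strand of chromosome 19 from 5740904 to 5758532 (ENSMUSG00000024940). Mesothelial-like cells led with 228 CPM (207 to 252) in CD45- Tom+, 224 CPM (215 to 233) in CD45- Tom- and 220 CPM (212 to 229) in CD45+ Tom-, and a UMI was found in 97.0% to 98.9% of them. Progenitor-like cells followed at 164, 184, 165 and 181 CPM, and cluster 7 at 142, 152, 144 and 150 CPM. It was also the LTBP gene that macrophage-like cells carried, at 42.8 CPM (39.9 to 45.9), 54.9 CPM (50.6 to 59.5), 39.0 CPM (35.0 to 43.5) and 55.3 CPM (51.6 to 59.2), whereas the other LTBP genes stayed under 5 CPM there. Plasma cell-like cells, among the deepest, had an Ltbp3 UMI in only 3.74% to 8.77% of cells in the 3 libraries with at least 50 of them.

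Ltbp4, which is known for elastic fiber assembly and for binding the TGF-β1 complex, stood out in endothelium. The gene (ENSMUSG00000040488) lies on the minus strand of chromosome 7 from 27305136 to 27337692. Lymphatic endothelial-like cells held 839 CPM (808 to 870) in CD45- Tom+ and 846 CPM (801 to 893) in CD45+ Tom+, with a UMI in 97.8% and 96.5% of cells, or 70.8% and 75.3% after thinning. Cluster 12 held 298 CPM (265 to 332), 376 CPM (340 to 415) and 406 CPM (370 to 444) in CD45- Tom+, CD45- Tom- and CD45+ Tom-, and the 63 blood endothelial-like cells of all libraries together held 618 CPM (574 to 664). Progenitor-like cells came after these with 191, 245, 175 and 239 CPM, then mesothelial-like cells with 119, 133 and 124 CPM. In cluster 7 of CD45+ Tom- Ltbp4 stood at 45.8 CPM, or at 70.9 CPM without the shared barcodes. In plasma cell-like cells of CD45- Tom+, CD45+ Tom+ and CD45+ Tom-, 3.38%, 3.30% and 14.0% had a UMI of Ltbp4 before thinning. After thinning at most 0.242% of these cells had one.

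Lrrc32, which encodes the surface tether GARP, was highest in lymphatic endothelial-like cells and cluster 12, as Ltbp4 was. The gene (ENSMUSG00000090958) lies on the plus strand of chromosome 7 from 98489283 to 98502181. Lymphatic endothelial-like cells held 134 CPM (122 to 147) and 122 CPM (105 to 141) in the Tom+ libraries, and cluster 12 held 114 CPM (94.6 to 136), 153 CPM (130 to 178) and 155 CPM (133 to 179) in the libraries with 50 or more of its cells. The intervals of these classes overlapped in CD45- Tom+. Progenitor-like cells held 53.6 CPM (47.9 to 59.8), 69.3 CPM (66.6 to 72.1), 78.6 CPM (68.2 to 90.0) and 74.5 CPM (72.0 to 77.2). Dendritic-like cells were the highest leukocytes for Lrrc32 in the Tom- libraries, at 12.3 and 14.4 CPM, and macrophage-like cells had a UMI in 3.34% to 4.94% of cells.

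Nrros, which encodes the myeloid tether LRRC33, was highest in myeloid classes. It lies on the minus strand of chromosome 16 from 32142785 to 32165594 (ENSMUSG00000052384). Macrophage-like cells held 173 CPM (167 to 180), 160 CPM (153 to 168), 173 CPM (164 to 182) and 151 CPM (144 to 157), and a UMI was found in 88.9%, 82.5%, 87.2% and 84.9% of them. Monocyte-like cells held 188 CPM (158 to 222) in CD45+ Tom-, where 58 of them were kept. Mast-like cells held 88.1 and 88.2 CPM in the Tom+ libraries, dendritic-like cells 87.9 and 58.8 CPM in the Tom- libraries, and B cell-like cells 60.4, 67.6, 52.0 and 69.7 CPM. T cell-like cells were lower, at 16.5, 20.6, 10.4 and 11.4 CPM. Progenitor-like cells held 5.51, 2.27, 2.28 and 1.54 CPM with a UMI in 7.66%, 4.87%, 5.66% and 3.50% of cells, and after thinning these shares were 1.54%, 0.461%, 0% and 0.350%, against 25.6% to 29.5% in macrophage-like cells.

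Itgav, the αv subunit shared by several RGD-binding integrins, was found in every class. The gene (ENSMUSG00000027087) lies on the plus strand of chromosome 2 from 83724397 to 83806916. Lymphatic endothelial-like cells held 172 CPM (158 to 186) and 201 CPM (179 to 224), cluster 7 held 146, 162, 149 and 158 CPM, and mesothelial-like cells held 149, 140 and 135 CPM. Macrophage-like cells at 111, 129, 107 and 128 CPM and progenitor-like cells at 101, 122, 108 and 117 CPM lay close together, and their intervals overlapped in 3 libraries. The lowest well-covered class was plasma cell-like, at 13.1, 12.2 and 10.2 CPM in CD45- Tom+, CD45+ Tom+ and CD45+ Tom-, although 28.1% to 31.0% of these deep cells had a UMI there.

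Itgb8, the β8 subunit that gives αv its LAP-activating partner, was highest in mesothelial-like cells and cluster 7 among classes of at least 50 cells. It lies on the minus strand of chromosome 12 from 119158022 to 119238802 (ENSMUSG00000025321). Mesothelial-like cells held 42.0 CPM (32.9 to 52.7), 38.3 CPM (34.7 to 42.1) and 41.9 CPM (38.2 to 45.7) in CD45- Tom+, CD45- Tom- and CD45+ Tom-, and the 29 such cells of CD45+ Tom+ held 67.1 CPM (52.1 to 85.0). Cluster 7 held 36.7 CPM (31.8 to 42.0), 34.8 CPM (30.7 to 39.2), 37.0 CPM (30.2 to 44.8) and 31.5 CPM (27.7 to 35.7). Progenitor-like cells were next among stromal classes at 4.51, 5.93, 6.45 and 5.77 CPM. Without shared barcodes the mesothelial-like level of CD45- Tom- was 25.1 CPM (18.9 to 32.6) and those of CD45- Tom+ and CD45+ Tom- were 40.3 and 40.1 CPM. A UMI of Itgb8 was found in 39.4% to 41.8% of mesothelial-like cells and in 0.401%, 1.06%, 0.513% and 0.688% of macrophage-like cells. Unnamed cluster 30, whose 28 cells came only from the Tom+ libraries and were led by Gpx5 and Spag11b, held 57.9 CPM (44.2 to 74.6).

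Transcripts of both αvβ8 subunits in the same cell, counted for the pair Itgav and Itgb8, were found mostly in mesothelial-like cells and cluster 7. Both were found in 39.4%, 36.7% and 40.0% of mesothelial-like cells of CD45- Tom+, CD45- Tom- and CD45+ Tom-, and in 37.7%, 39.8%, 45.6% and 40.3% of cluster 7. The share was 9.20%, 8.28%, 11.3% and 10.7% in progenitor-like cells and 0.267%, 0.529%, 0.513% and 0.688% in macrophage-like cells. These shares were near the product of the shares for each subunit, for example 38.2%, 36.7% and 38.9% in mesothelial-like cells.

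Which cells supplied the pool of each transcript depended on the library as well as on the level per cell, since the Tom+ libraries held 261 and 106 progenitor-like cells and the Tom- libraries 1521 and 1715. These shares follow the sort and describe the libraries, not the tissue. Unnamed clusters 15 and 24 counted as neither leukocyte-like nor progenitor-like, and cluster 15 held 485 and 319 Nrros UMIs in the Tom+ libraries. Progenitor-like cells held 97.4% and 97.0% of Ltbp1 UMIs in CD45- Tom- and CD45+ Tom-, and 56.9% and 52.8% in the Tom+ libraries, where endothelial-like cells held 21.3% and 21.2%. For Ltbp4 the endothelial-like share was 58.8% and 60.8% in the Tom+ libraries and 0.3% and 0.7% in the Tom- libraries, where progenitor-like cells held 78.0% and 80.3%. Lrrc32 behaved alike, with 45.5% and 37.3% of its UMIs in endothelial-like cells of the Tom+ libraries and 88.1% and 88.7% in progenitor-like cells of the Tom- libraries. Leukocyte-like cells held 78.4%, 86.7%, 74.9% and 88.0% of Nrros UMIs. They also held 46.1% and 42.2% of Itgav UMIs in the Tom+ libraries, against 20.1% and 23.4% in the Tom- libraries. Most Itgb8 UMIs lay in cluster 7 and mesothelial-like cells, with 52.7%, 28.1%, 44.9% and 23.8% in cluster 7 and 18.9%, 45.9%, 29.1% and 48.2% in mesothelial-like cells.

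**Figure D2:**
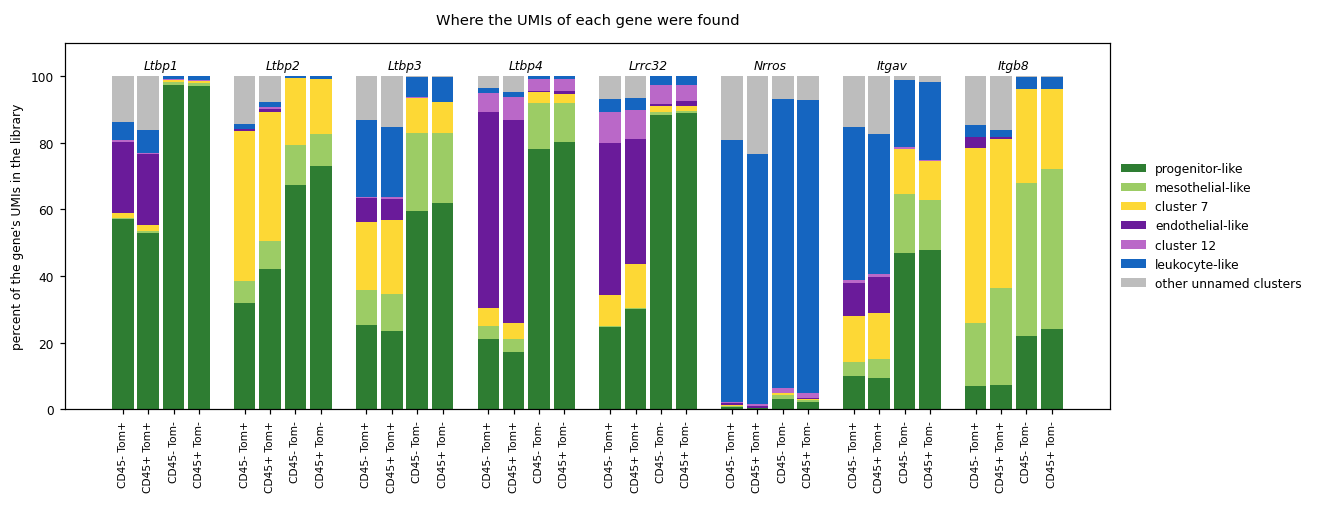
Stacked bars of the percent of each member's UMIs that came from each group of cells, 1 bar for each library. In the Tom- libraries most Ltbp1, Ltbp4 and Lrrc32 UMIs came from progenitor-like cells, and in the Tom+ libraries a large part came from endothelial-like cells; Nrros came from leukocyte-like cells in all 4.

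Progenitor-like cells were not uniform for these genes. They fell into 5 clusters: cluster 0 (led by Inmt and Mmp11), cluster 3 (Fgf10 and Col8a1), cluster 6 (Cpxm2, Sfrp1 and Ptx3), cluster 21 (Adamts16, Efhd1 and the interstitial progenitor genes Pi16 and Sema3c) and the interferon-marked cluster 29 (Ifit3b and Ifit3). These clusters were formed from the same expression values, so the levels are a description. Over all libraries Ltbp1 stood at 266 CPM in cluster 21, 157 in cluster 0, 150 in cluster 6, 113 in cluster 29 and 80.6 in cluster 3. Ltbp4 had the same leading cluster, at 554 CPM in cluster 21 against 287 in cluster 0, 247 in cluster 6 and 141 and 140 in clusters 3 and 29. Ltbp2 was nearly the opposite, with 93.2 CPM in cluster 6, 81.8 in cluster 3 and 63.4 in cluster 29 but 10.9 in cluster 0 and 8.66 in cluster 21. Ltbp3 and Lrrc32 varied less: Ltbp3 ran from 128 CPM in cluster 21 to 207 in cluster 6, and Lrrc32 from 48.9 in cluster 29 to 86.2 in cluster 3.

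**Figure D3:**
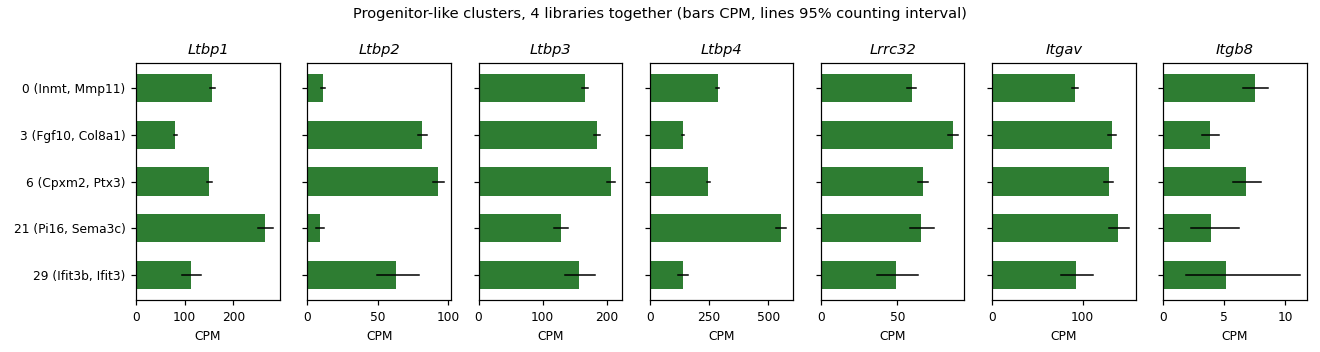
Level in CPM of the members other than Nrros in the progenitor-like clusters (y axis), as bars from 0 with the UMIs of the 4 libraries summed and lines for exact Poisson intervals at 95%. Ltbp1 and Ltbp4 are highest in the Pi16 cluster 21, whereas Ltbp2 is high in clusters 3 and 6 and low in clusters 0 and 21.

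Macrophage-like cells divided into cluster 2 (led by Arg1 and Car6), cluster 4 (Atp6v0d2, Ms4a7 and Gpnmb) and cluster 13 (Fcna, Marco and the resident macrophage genes Vsig4 and Timd4). Nrros stood at 141, 167 and 264 CPM in clusters 2, 4 and 13. Ltbp3 was highest in cluster 2, at 67.7 CPM against 33.5 and 37.6, and Itgav stood at 146, 93.5 and 133 CPM. Among dendritic-like cells Itgb8 was found in cluster 25, led by Ccl22 and Ccr7, at 14.6 CPM (8.3 to 23.7) in 64 cells, against 0.6 CPM in the 169 cells of cluster 20. Without the shared barcodes the dendritic-like level of Itgb8 in CD45- Tom- was 2.14 CPM (0.26 to 7.75) rather than 6.44 CPM. The Ccr7-positive state is known for migration to lymph nodes.

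T cell-like cells contained a small set with Foxp3, the transcription factor of regulatory T cells, in which the GARP and αvβ8 genes are known to act. A Foxp3 UMI was found in 6, 12, 1 and 19 T cell-like cells, 38 in all, and these were set beside the 1096 others as a description. Itgav stood at 350 CPM (279 to 432) in cells with a Foxp3 UMI and at 59.6 CPM (54.3 to 65.3) in those without. Itgb8 stood at 53.5 CPM (28.5 to 91.4) against 3.84 CPM (2.59 to 5.49), from 13 and 30 UMIs. Lrrc32 stood at 28.8 CPM (11.6 to 59.3) against 2.05 CPM (1.17 to 3.33), from 7 and 16 UMIs, and all 7 came from the 19 cells of CD45+ Tom-. The other 3 libraries held 19 such cells and no Lrrc32 UMI in them. For Nrros, at 28.8 CPM (11.6 to 59.3) against 14.4 CPM (11.8 to 17.3), the interval without Foxp3 lay inside the one with it. Even in these cells the Itgb8 level rested on 6 cells with a UMI, or 15.8% (6.02% to 31.3%).

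**Figure D4:**
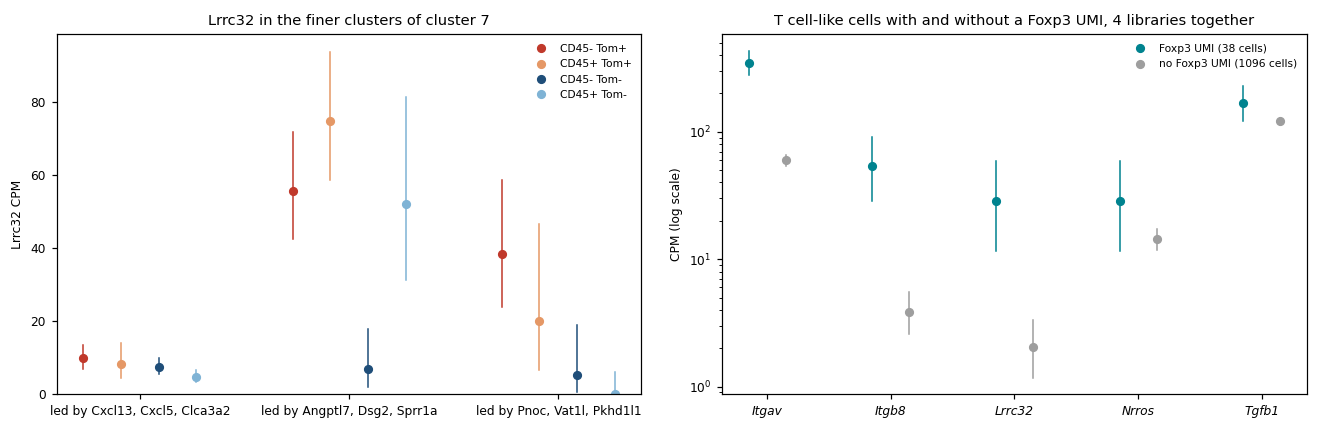
Left, Lrrc32 CPM by library in the 3 largest finer clusters of cluster 7, each named by its leading genes; right, CPM on a log scale of 4 members and Tgfb1 in T cell-like cells with and without a Foxp3 UMI, all libraries summed. Lines are exact Poisson intervals at 95%. Lrrc32 is highest in the Angptl7 cluster, of 20 to 40 cells a library, in 3 of 4 libraries. Itgav and Itgb8 are higher in T cell-like cells with a Foxp3 UMI.

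The rest of the pathway was described from a list of 32 further genes. Of the ligands, Tgfb1 was a leukocyte and endothelial transcript, at 387 CPM in monocyte-like cells of CD45+ Tom-, 249, 277, 221 and 287 CPM in macrophage-like cells and 197 and 226 CPM in lymphatic endothelial-like cells, against 24.2, 23.4, 27.7 and 24.3 CPM in progenitor-like cells. Tgfb2 was highest in cluster 7, at 202, 241, 201 and 308 CPM, and Tgfb3 stayed under 50 CPM in every class, with 48.0 and 49.7 CPM in lymphatic endothelial-like cells. Transcripts of each tether were found together with Tgfb1 in different classes. After thinning, a UMI of both Nrros and Tgfb1 was found in 22.4% of monocyte-like and 7.44% to 10.8% of macrophage-like cells. Lrrc32 and Tgfb1 were found together in 5.06% and 9.41% of lymphatic endothelial-like cells, and Ltbp4 and Tgfb1 in 18.5% and 28.2% of the same cells. The product of the shares for each gene is not given here for the pairs with Tgfb1, so only joint detection is described. Of the β subunits other than β8 that can join αv, Itgb5 was carried by macrophage-like cells (220, 239, 219 and 243 CPM) and progenitor-like cells (185, 189, 180 and 188 CPM). Itgb6, known from epithelium, was at or near 0 in every class, at most 0.433 CPM. Of the matrix partners of the LTBPs, Fbn1, the main fibrillin, stood at 959, 1184, 1102 and 1190 CPM in progenitor-like cells. In cluster 7 Fbn1 stood at 373, 403, 395 and 373 CPM. The partners did not all keep to the stroma, since Fn1, which encodes fibronectin, was also carried by macrophage-like cells, as given below.

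Tom+ cells were then set against Tom- cells within a class, separately for the pair of libraries labelled CD45- and the pair labelled CD45+. A gene was taken into the comparison if the mean of both libraries reached 5 CPM, and it was called if the Tom+ and Tom- levels differed by 2-fold or more. No gene had a p-value, since each side was 1 library.

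In progenitor-like cells, 7 members passed the level filter in each pair and 0 were called, against a background of 1.47% of genes called in the CD45- pair and 1.56% in the CD45+ pair. Ltbp4 was lower in Tom+ cells in both pairs, by a log2 ratio of -0.36 (-0.45 to -0.27) and -0.45 (-0.59 to -0.32), which is under 2-fold, and -0.42 and -0.66 without the shared barcodes. The median log2 ratio of the members was -0.28 and -0.08, beside -0.04 and -0.03 over all genes. Lrrc32, at -0.37 (-0.54 to -0.20) in the CD45- pair and 0.08 (-0.13 to 0.28) in the CD45+ pair, did not keep its direction. Ltbp1 was -0.18 (-0.29 to -0.06) and -0.08 (-0.24 to 0.08), and Ltbp3 was -0.16 and -0.14. Ltbp2 was -0.06 (-0.23 to 0.11) and 0.34 (0.12 to 0.55), but without the shared barcodes 0.58 and 0.93. Itgav was -0.28 (-0.41 to -0.16) and -0.12 (-0.30 to 0.05), and Itgb8 was -0.39 (-1.03 to 0.19) and 0.16 (-0.64 to 0.87). With the remaining cells clustered anew, the progenitor-like class took in cells of cluster 7, which made up 90 of its 325 cells in CD45- Tom+, 58 of 831 in CD45- Tom-, 49 of 145 in CD45+ Tom+ and 53 of 1073 in CD45+ Tom-. In that class Ltbp4 at -1.09, Ltbp2 at 1.18 and Itgb8 at 1.33 were called in the CD45+ pair. The same genes stood at -0.80, 0.91 and 0.69 in the CD45- pair, where 0 members were called. The share of all genes called in that class is not given here. Ltbp1 stood at -0.81 and -0.74 there, Lrrc32 at -0.68 and -0.34, and Itgav at 0.10 and 0.20. With the progenitor-like class as first named, 0 of 30 tested pathway genes were called in either pair. Immunoglobulin transcripts, which plasma cells make, made up 2.33% and 1.41% of the UMIs of the median Tom+ progenitor-like cell and 0.14% and 0.11% of the Tom- cell, and their part in these ratios was not tested beyond recomputing CPM without them.

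**Figure D5:**
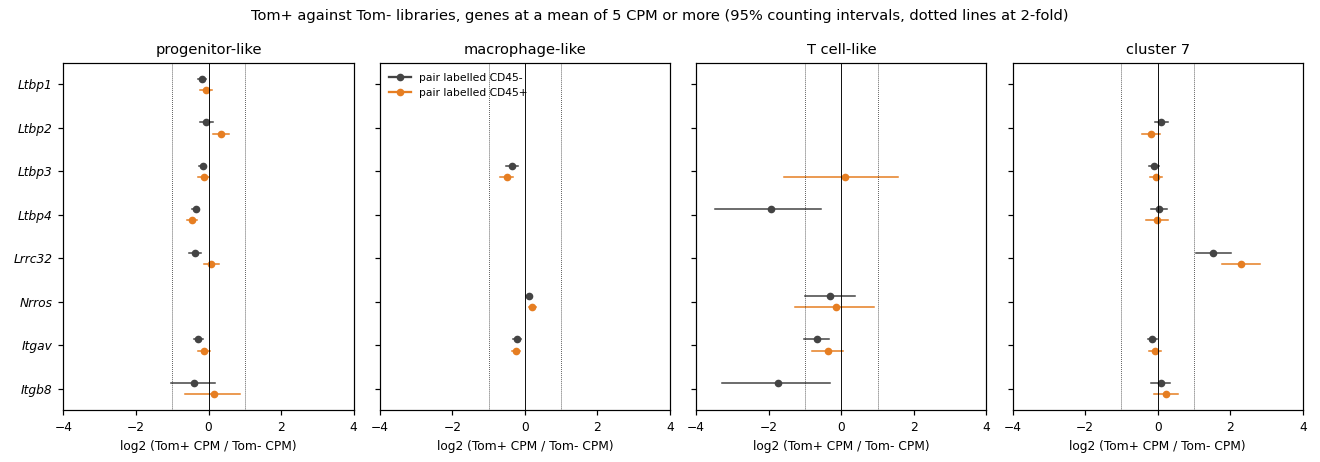
Log2 ratio of Tom+ over Tom- CPM for each member that passed the level filter, in progenitor-like, macrophage-like and T cell-like cells and cluster 7, for the pairs labelled CD45- and CD45+. Bars are conditional exact intervals at 95% for counting error and dotted lines mark 2-fold; past 2-fold lie Lrrc32 in cluster 7 in both pairs and Ltbp4 and Itgb8 in T cell-like cells of the CD45- pair.

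In macrophage-like cells 3 members were tested in each pair and 0 were called, against 2.18% and 2.69% of all genes. Ltbp3 was lower in Tom+ cells, with log2 ratios of -0.36 (-0.51 to -0.20) and -0.50 (-0.69 to -0.32), Itgav was -0.22 and -0.25, and Nrros was 0.11 and 0.20. The mix of clusters moved with Tom: the Arg1 cluster 2 made up 29.4%, 65.6%, 31.3% and 64.2% of macrophage-like cells. Inside cluster 2 the Ltbp3 ratio was 0.19 (-0.02 to 0.40) and -0.28 (-0.58 to 0.01), and the Nrros ratio was -0.014 and 0.065. Ltbp3 stood at -0.31 (-0.60 to -0.02) and -0.11 (-0.41 to 0.18) inside cluster 4, and at -0.14 (-0.86 to 0.66) and -0.58 (-1.39 to 0.26) inside cluster 13. Ltbp1, below the level filter in the class, was -0.09 (-0.82 to 0.67) and 0.11 (-0.57 to 0.78) over the whole class. Inside cluster 2 its log2 ratios were 1.27 (0.49 to 2.08) and 1.69 (0.95 to 2.42). There it stood at 8.44 against 3.50 and 13.9 against 4.31 CPM. Inside clusters 4 and 13 Ltbp1 was lower in Tom+ cells, on at most 7 UMIs a library. All 42 Ltbp1 UMIs of CD45- Tom+ macrophage-like cells lay within 15 of 749 cells. In CD45+ Tom+, 93.75% of the 32 Ltbp1 UMIs lay within 8 of 390 cells. Ltbp4, also below the filter, was -1.60 (-3.18 to -0.29) and -0.69 (-2.40 to 0.68) inside cluster 2. Ltbp2 had 0 and 9 UMIs there in the CD45- pair, and 3 and 8 in the CD45+ pair. Of the pathway list, 5 of 23 and 6 of 25 tested genes were called, all lower in Tom+ cells, among them Fn1 (3111 against 7409 and 2858 against 7273 CPM) and Thbs1 (208 against 453 and 203 against 501 CPM), an activator of latent TGF-β. The 6 progenitor markers summed to 51.7 and 44.0 CPM in Tom+ and 184 and 195 CPM in Tom- macrophage-like cells, and their part in these differences was not tested.

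T cell-like cells had 4 members tested and 2 called in the CD45- pair, where 8.14% of genes were called, and 3 tested and 0 called in the CD45+ pair, where 9.76% were. The called members were Ltbp4, at 2.51 against 9.65 CPM (7 and 15 UMIs, log2 ratio -1.94, -3.48 to -0.56), and Itgb8, at 2.51 against 8.36 CPM (7 and 13 UMIs, log2 ratio -1.74, -3.30 to -0.31). Without the shared barcodes the Itgb8 ratio was -1.47, or -0.39 with the remaining cells clustered anew, where 0 members were called in this pair. In that re-clustering a cluster led by Trdc and Tcrg-C1 lost the T cell name because of immunoglobulin genes. Its 254, 55, 92 and 82 cells were therefore left out of the re-clustered class. In the CD45+ pair Nrros was -0.13 (-1.28 to 0.90) as reported and -1.07 in cells clustered anew, without that cluster. In the CD45+ pair Itgb8 stood at 0.942 CPM from 1 UMI against 8.34 CPM from 22 UMIs, below the level filter. Cluster makeup moved here too, with the γδ cluster 10, led by Trdc and Tcrg-C1, making up 66.0%, 23.4%, 62.3% and 23.1% of T cell-like cells. Cluster 10 held 0.3 CPM of Itgb8 over all libraries and cluster 11, led by Gzmk and Cd4, held 14.1 CPM. Within cluster 11 Itgb8 stood at 9.99 against 15.6 and 4.09 against 17.2 CPM, and the intervals of both ratios included 0. In the CD45+ pair Ltbp4 stood at 3.77 against 4.55 CPM (4 and 12 UMIs, log2 ratio -0.27, -2.36 to 1.45), below the level filter. The 6 progenitor markers summed to 71.3, 347, 109 and 271 CPM in T cell-like cells. The part of progenitor transcripts in the Ltbp4 values was not tested.

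The comparison was planned for progenitor-like, macrophage-like and T cell-like cells, and cluster 7 was outside that plan. The comparison was also run in B cell-like, plasma cell-like and mesothelial-like cells and cluster 12. There only Ltbp3 in B cell-like cells of the CD45+ pair was called, on 1 and 18 UMIs. The background in that pair of B cell-like cells was 12.1% of genes. In cluster 7 a member was called in both pairs. Of 6 members tested in each pair 1 was called, Lrrc32 both times, where 1.72% and 3.77% of all genes were called. Lrrc32 stood at 21.4 CPM (17.7 to 25.6) in CD45- Tom+ and 7.38 CPM (5.57 to 9.58) in CD45- Tom-, a log2 ratio of 1.53 (1.06 to 2.02). In the CD45+ pair it stood at 32.4 CPM (26.1 to 39.7) against 6.62 CPM (4.93 to 8.70), a log2 ratio of 2.29 (1.78 to 2.81). Both Tom+ libraries were above both Tom- libraries, with a UMI in 29% and 35.6% of cells against 15.1% and 11.9%. Without the shared barcodes the ratios were 1.57 (0.60 to 2.70) and 2.92 (1.71 to 4.43). With every cell thinned to 2000 UMIs they were 3.71 (0.86 to 9.17), from 9 and 1 UMIs, and 1.21 (-0.37 to 2.75), from 8 and 9 UMIs, so that the interval of the CD45+ pair included 0. The other 5 tested members, Ltbp2, Ltbp3, Ltbp4, Itgav and Itgb8, had ratios from -0.19 to 0.23.

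The Lrrc32 difference was uneven within cluster 7. At a finer clustering, 21.9%, 7.7%, 28.9% and 8.2% of cluster 7 cells fell into a cluster led by Angptl7, Dsg2 and Sprr1a. These were 40, 20, 26 and 20 cells, in which Lrrc32 stood at 55.7, 6.95, 74.7 and 52.1 CPM. With so few cells, differences between libraries inside this cluster were not read further. Most of the other cluster 7 cells (123, 221, 47 and 196, or 67.2%, 85.3%, 52.2% and 80.7%) fell into a cluster led by Cxcl13. There Lrrc32 stood at 9.77, 7.54, 8.13 and 4.74 CPM. Inside the Cxcl13 cluster alone the log2 ratios were 0.37 (-0.27 to 1.01) and 0.78 (-0.28 to 1.75), with intervals that included 0. Of the pathway list, Mmp2, a matrix metalloproteinase that can release TGF-β, was the only gene called in cluster 7, at 184 against 84.7 CPM (log2 ratio 1.12) and 250 against 76.3 CPM (log2 ratio 1.71), among 30 and 29 tested.

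Finally, the genes with the most similar pattern were sought over the 46 combinations of class and library with at least 50 cells, among 6961 genes, by Pearson's r of log2(CPM + 1). The points share libraries and cells of related types, so r is a description. For 7 of the members, the closest genes were Thsd7a for Ltbp1 (r = 0.92), Col6a5 for Ltbp2 (0.96), Lama4 for Ltbp4 (0.97), Ramp2 for Lrrc32 (0.91), Rassf4 for Nrros (0.94), Wbp1l for Itgav (0.90) and Sntg1 for Itgb8 (0.90). Col6a6 and Cpz followed for Ltbp2, Hoxd8 and Gja1 for Ltbp4, and Tm6sf1 and Hcls1 for Nrros.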

How the data were processed

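Libraries were made with the 10x Genomics Chromium Single Cell 3′ kit v3.1, and the authors deposited UMI counts per gene and barcode, made with Cell Ranger 3.0.2 on mm10 per the labels. Positions are from GENCODE vM21 (GRCm38), which held 30934 of the 31054 feature IDs. Cells with over 1000 and under 7000 genes and at most 8% mitochondrial UMIs were kept, and the 259, 364, 54 and 427 barcodes with the highest doublet scores were removed. The raw counts of 7815, 11255, 3429 and 11068 barcodes totalled 64083756 to 139397501 UMIs per library, and 3886, 3674, 1927 and 4391 cells were kept. Counts were clustered jointly with scanpy 1.11.5 (2000 variable genes, 30 components, Leiden resolution 1), with no batch correction, and clusters were named from fixed marker lists. UMIs were summed per class and library, so that deep cells weigh more, and given as CPM. Exact intervals (Poisson, Clopper-Pearson for shares, conditional binomial for ratios) used scipy 1.17.1 and were tested on simulated data. Thinning drew 2000 UMIs per cell. Every member is named, and the pathway list is counted as a whole with examples. Members and lists were chosen with earlier results of these data known. With 1 library per group, PCR and capture differences between libraries cannot be told apart from Tom. Alternatives changed the cell filter, doublets, clustering, shared barcodes, depth, CPM total, weights, level filter, fold threshold and, added after seeing the data, the cluster mix. The gene closest in pattern to Ltbp3 is not reported here.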

Additional observations from a re-analysis of the deposited data

How the results depend on the processing

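In each library 7 of 8 members were highest outside the leukocyte-like classes under every alternative run for that count. Of 267 recomputed log2 ratios, 36 changed sign, of which 31 had an interval that included 0 as reported and 5 did not. Of those 5, in progenitor-like cells of the CD45- pair Itgav went to 0.10 with cells re-clustered without shared barcodes. In macrophage-like cells of the CD45- pair Nrros went to -0.031 with the looser cell filter, -0.042 without shared barcodes and -0.028 with both libraries given the cluster mix of Tom-, a setting that also took Ltbp3 to 0.073.

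The number of members called in progenitor-like cells was 0 in both pairs, 1 (CD45-) with no filter on low values and 3 (CD45+) with cells re-clustered without shared barcodes, where 49 of 145 Tom+ and 53 of 1073 Tom- cells came from cluster 7. With the names kept, leaving out shared barcodes called 0. In macrophage-like cells it was 0, and 4 (CD45-) or 1 (CD45+) with no filter and 1 (CD45+) at the Tom- cluster mix. In T cell-like cells of the CD45- pair it was 2, and 5 with the looser cell filter or no filter, 0 without shared barcodes, 1 with those left out and names kept, and 1 at the Tom- cluster mix. In the CD45+ pair it was 0, and 2 with the looser filter, 4 with doublets kept, 1 at Leiden resolution 2, 2 without shared barcodes, 1 without immunoglobulin, mitochondrial and ribosomal protein genes, 3 with no filter, 1 with equal cell weights and 1 at the Tom- mix. Except for the re-clustering, the fewer genes filtered and the matched mix, the cause was not tested. The T cell-like class re-clustered without shared barcodes lacked the cluster led by Trdc and Tcrg-C1. The share of all genes called under each alternative is not given here, so these counts stand without a background. The 2 members called in T cell-like cells rested on 7 to 15 UMIs a library. In cluster 7 the Lrrc32 ratio ran from 0.37 to 3.71 (CD45-) and from 0.78 to 2.92 (CD45+) over settings added after seeing the data. No paired analysis was possible because the groups share only replicate number 1. The pairs of Tom+ and Tom- libraries are given side by side, with no test over them.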
